A study of Sus scrofa with 6 samples.

Results

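The miR-23, miR-27 and miR-24 miRNAs come from a pair of gene clusters, an a cluster with miR-23a and miR-27a and a b cluster with miR-23b and miR-27b, and both clusters also carry a miR-24 gene. They were taken by name from the labelled table of listed miRNAs, where 6 of 245 entries matched: miR-23a, miR-23b, miR-27a, miR-27b-3p, miR-24-3p and miR-24-1-5p. Small RNA was sequenced from 3 milk libraries and 3 libraries of exosomes collected from milk, all of Rongchang pigs, with no treatment or genotype in the labels. Exosomes are small vesicles that cells release and that carry RNA. The series sets miRNAs of milk against those of its exosomes, and its design text gives 3 individuals as biological replicates without saying whether milk and exosomes of 1 number came from 1 animal, so p-values measure the spread between these libraries.

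Within such a cluster the hairpins lie on 1 primary transcript, from which the processing enzymes Drosha and Dicer release the mature miRNAs. A mature miRNA pairs with messenger RNAs mainly through its seed, bases 2 to 8, and lowers their translation and stability. miR-27a and miR-27b are known in mouse and human cells for holding back fat cell differentiation, miR-23a and miR-23b in human cells for repressing glutaminase, and miR-24 in human cells for restraining cell cycle genes. Both clusters are also known for roles in blood vessels of mice.

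The 6 sequences are shown because the comparison of the clusters rests on them. They are given as the authors' table lists them, with T for U and the seed in capitals.
miR-23a: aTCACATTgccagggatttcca
miR-23b: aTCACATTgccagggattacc
miR-27a: tTCACAGTggctaagttccgc
miR-27b-3p: tTCACAGTggctaagttctgc
miR-24-3p: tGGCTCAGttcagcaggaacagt
miR-24-1-5p: gTGCCTACtgagctgaaacacagt
miR-23a and miR-23b share a seed, and no other listed sequence had it. Over the 21 bases they have in common they differed by 1 substitution, T19A, counted from the 5′ end with the base of miR-23a first. miR-27a and miR-27b-3p likewise share a seed of their own and differed by C19T over 21 bases. The seeds of miR-23a and miR-27a differed by T7G alone. The listed sequences of a pair can thus be told apart only by the base at position 19, and how the authors placed reads that do not reach it is not known. miR-24-3p can come from either cluster and cannot be assigned. miR-24-1-5p, the opposite arm of a miR-24 hairpin, can be assigned: in the RefSeq gene table of the pig assembly Sscrofa11.1, MIR23A has MIR27A and MIR24-1 as its miRNA neighbours, and MIR23B has MIR24-2 and MIR27B. In human the numbers of the miR-24 genes are the other way round. miR-24-2-5p, the corresponding arm of the b cluster, and the opposite arms of the miR-23 and miR-27 hairpins had no entry under the names searched and were not analysed here.

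Libraries of 1 group differed widely in depth and make-up. Values are a normalized abundance made by the authors, and the most frequent value above 0 in a library was taken as the value of 1 read. By this estimate milk 1 and milk exosome 3 held 9124580 and 8020867 reads of listed miRNAs, and the other 4 libraries held 1901 to 9313. The deep pair was also most alike across miRNAs (Pearson r = 0.993 of log2 values over 141 miRNAs, which are not independent replicates), although 1 library is labelled milk and the other milk exosome, so fold changes and share differences are also given for the shallow libraries alone. Whether these labels are right could not be settled from the values, and the doubt extends to every comparison of milk with exosomes below. miR-451, a red blood cell miRNA, was the most abundant entry of the deep pair with 83.0% and 81.5% of the listed signal. miR-21 led milk 3 with 9.79% and miR-1, a muscle miRNA, led milk exosome 2 with 36.4%. Intervals are at 95% on rounded read estimates, and they cover counting error only.

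Members of the clusters led the 2 remaining libraries. miR-23a was the most abundant of 238 listed sequences in milk 2, and miR-27a was the most abundant in milk exosome 1, where miR-23a ranked 2. All 6 members together held 16.7% of the listed signal of milk 2 and 26.8% of milk exosome 1. In milk 3 and milk exosome 2 their shares were 4.92% and 1.94%. In the deep pair they held 0.287% (milk 1) and 0.294% (milk exosome 3), and without the 4 erythrocyte miRNAs of the signal these shares were 3.0% and 2.92%. The 2 libraries with the highest shares were thus 1 of milk and 1 of exosomes, which the plot of values by library also shows for the a paralogs.

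**Figure D1:**
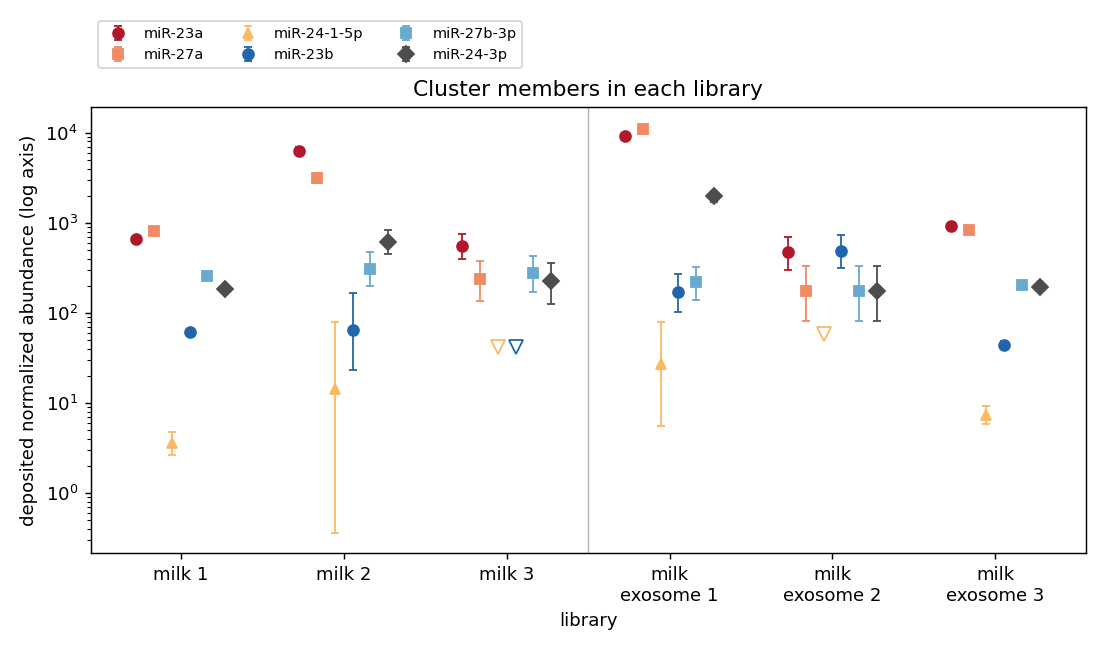
Deposited normalized abundance (log axis) of the 6 members in the 3 milk and 3 milk exosome libraries. Bars are exact Poisson intervals at 95% on the estimated reads; open triangles mark members listed at 0, drawn at the value of 3 reads. miR-23a and miR-27a stand highest in milk 2 and milk exosome 1, while miR-27b-3p lies between 177 and 308 in all 6 libraries.

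In the a cluster, miR-23a had values of 656, 6273 and 553 in milk 1, 2 and 3, and of 9160, 472 and 931 in milk exosome 1, 2 and 3. Milk 2 and milk exosome 1 were far above the rest, and the groups overlapped. The highest value was 19.4 times the lowest.

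miR-27a measured 820, 3133 and 235 in the milk libraries and 10965, 177 and 835 in the exosome libraries. It was high in the same 2 libraries as miR-23a and had a wider range, with a highest value 62.0 times the lowest. The low value of milk exosome 2 rested on 9 reads and that of milk 3 on 17. In the deep pair the values of miR-27a differed by a factor of 1.02, against 1.42 for miR-23a.

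miR-24-1-5p was the rarest member. Its values were 3.64, 14.3 and 0 in the milk libraries and 27, 0 and 7.40 in the exosome libraries. These values came from 48 reads in milk 1 and 79 in milk exosome 3, and from 1 read in milk 2 and 3 in milk exosome 1. In milk 3 and milk exosome 2, where it was listed at 0, 3 reads are worth 41.5 and 59.0, so a level as high as that of milk exosome 1 could not have been told from 0 there. It reached 10 in 2 libraries only and was not tested.

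In the b cluster, miR-23b reached 61.1, 64.5 and 0 in the milk libraries and 171, 491 and 44.1 in the exosome libraries. Its highest value was in milk exosome 2, where miR-23a had its lowest. That value rested on 25 reads, with an interval of 318 to 725, whose lower end lies above the upper limit of 267 for milk exosome 1. Milk 3, where it was listed at 0, could hold up to 51.0 by the upper limit of the Poisson interval.

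miR-27b-3p was the steadiest member. The milk libraries had 259, 308 and 277 and the exosome libraries 221, 177 and 204, and the highest value was 1.74 times the lowest. Mean values were 281 ± 24.8 (SD, n = 3) in milk and 201 ± 22.1 in exosomes, with no overlap between groups. Of all 141 tested miRNAs, 1.42% did not overlap between groups. Counting error in the shallow libraries was wider than this gap: the interval of milk 3 was 169 to 427 and that of milk exosome 2 was 80.9 to 336. As a share of the listed signal miR-27b-3p took 0.0374%, 0.494% and 1.05% of the milk libraries and 0.263%, 0.230% and 0.0271% of the exosome libraries, and on that scale the groups overlapped.

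miR-24-3p, which both clusters can give, measured 186, 617 and 228 in the milk libraries and 1968, 177 and 192 in the exosome libraries. It was highest in milk exosome 1, followed by milk 2, as miR-27a was. The other 4 libraries lay between 177 and 228. Reads of miR-24-3p outnumbered those of miR-24-1-5p in all 4 libraries that held both, by a factor of 25.9 in milk exosome 3 to 72.8 in milk exosome 1.

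Set against each other within a library, where the scaling cancels, the a paralog outweighed the b paralog in most libraries. The exceptions were milk exosome 2 for both pairs and milk 3 for the miR-27 pair. miR-23a made up 91.5% (90.9% to 92.0%) of the miR-23 pair in milk 1, 99.0% (97.4% to 99.6%) in milk 2 and 100% (91.2% to 100%) in milk 3. In exosomes it made up 98.2% (97.2% to 98.9%), 49.0% (34.4% to 63.7%) and 95.5% (95.1% to 95.9%), with Clopper-Pearson intervals. The share was above 50% in 5 of 6 libraries, with a mean of 88.8% ± 19.8 (SD, n = 6). An exact two-sided sign-flip permutation test of the share against 50% gave p = 0.0625, where 0.03125 is the smallest p that 6 libraries allow. Adjusted by Benjamini-Hochberg over the 2 pairs, this permutation test gave an adjusted p of 0.125. The test treats the 6 libraries as independent, which the labels do not settle and the likeness of the deep pair leaves in doubt.

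For the miR-27 pair the a share was lower and more spread. miR-27a made up 76.0% (75.3% to 76.7%) of the pair in milk 1, 91.0% (86.5% to 94.2%) in milk 2 and 45.9% (29.5% to 63.1%) in milk 3. In exosomes the shares were 98.0% (97.1% to 98.8%), 50% (26.0% to 74.0%) and 80.4% (79.6% to 81.1%). The share was above 50% in 4 of 6 libraries, and the mean was 73.6% ± 21.3 (SD, n = 6), with p = 0.125 in the same exact sign-flip permutation test and an adjusted p of 0.125. A sign flip leaves the 50% share of milk exosome 2 unchanged, so for this pair the test could not reach a p under 0.05. In milk 3 and milk exosome 2 the pair rested on 37 and 18 reads, and both intervals include 50%. The a share of miR-23 was above that of miR-27 in 5 of 6 libraries, a difference that was not tested. Within milk 3 the intervals of the pairs, 91.2% to 100% and 29.5% to 63.1%, did not meet.

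**Figure D2:**
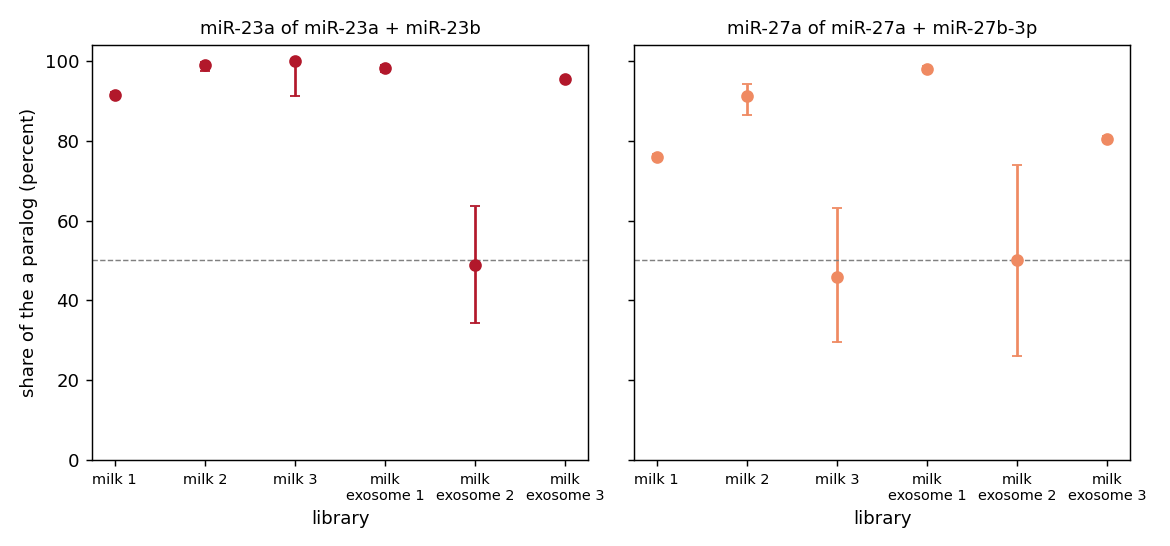
Share of the a paralog in each pair (percent, linear axis from 0) by library, with exact Clopper-Pearson intervals at 95% on the estimated reads; the dashed line is 50%. The miR-23a share is at or above 91.5% in 5 libraries and 49.0% in milk exosome 2; the miR-27a share ranges from 45.9% to 98.0%.

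The deep pair gave the most precise shares. There miR-23b was 9.32% (milk 1) and 4.74% (milk exosome 3) of miR-23a, and miR-27b-3p was 31.6% and 24.4% of miR-27a. Milk exosome 1, the library richest in the a cluster, had 1.87% and 2.01%. The read estimates of both miR-27a and miR-27b-3p ended in 0.5 of a read (within 0.05) in 4 libraries, the deep pair, milk 2 and milk exosome 1, so part of the signal was not counted in whole reads and the split between these paralogs is uncertain to that extent. Summed over miR-23a, miR-27a and miR-24-1-5p, the a cluster was 4.62, 25.3 and 2.85 times the sum of miR-23b and miR-27b-3p in milk, and 51.4, 0.971 and 7.14 times in exosomes. The a sum ran from 649 to 20152 over the 6 libraries, and the b sum from 248 to 668.

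Neither share differed between the groups beyond the spread of the libraries. The miR-23a share was 96.8% ± 4.66 (SD, n = 3) in milk and 80.9% ± 27.7 in exosomes, a difference of -15.9 percentage points (exact two-sided permutation test, p = 0.5). Without milk exosome 2 the difference was 0.000874 points, so this library alone made it. The miR-27a share was 71.0% ± 23 in milk and 76.1% ± 24.3 in exosomes, a difference of 5.15 points (p = 0.7, exact permutation test), which turned to -7.37 without milk 3 and -5.80 without milk exosome 1. In the 4 shallow libraries alone the differences were -25.9 and 5.52 points. With 3 libraries against 3 the smallest possible p is 0.1.

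Over all libraries with a ratio, miR-27 to miR-23 spanned a narrower range in the a cluster than in the b cluster. In the deep pair alone the b ratios lay closer together than the a ratios. miR-27a was 1.25, 0.499 and 0.425 times miR-23a in milk and 1.20, 0.375 and 0.897 times in exosomes. The log2 ratio averaged -0.64 ± 0.84 (SD, n = 3) in milk and -0.44 ± 0.87 in exosomes, a difference of 0.20 on log2(value + 1) (exact two-sided permutation test, p = 1), which was 0.54 in the shallow libraries alone and turned to -0.10 without milk 3 and -0.15 without milk exosome 1. In the b cluster miR-27b-3p was 4.24, 4.78, 1.29, 0.360 and 4.62 times miR-23b in milk 1, milk 2 and the 3 exosome libraries in order, and milk 3 gave no ratio because miR-23b was listed at 0. miR-27b-3p thus exceeded miR-23b in 4 of these 5 libraries and fell below it in milk exosome 2. Outside the deep pair these ratios are imprecise. There miR-23b rested on 4.5 reads in milk 2, 19 in milk exosome 1 and 25 in milk exosome 2.

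miR-24-3p kept a nearly fixed ratio to the miR-27 pair in 4 libraries. It was 0.173, 0.179, 0.176 and 0.185 times the sum of miR-27a and miR-27b-3p in milk 1, milk 2, milk exosome 1 and milk exosome 3, while the sum itself was highest in milk exosome 1. The ratio was 0.446 in milk 3 and 0.50 in milk exosome 2. As a share of the 3 miRNAs miR-24-3p held 14.7% to 15.6% in the former libraries. It held 30.8% (18.3% to 44.3%) in milk 3 and 33.3% (16.5% to 54.0%) in milk exosome 2, which rest on few reads. The grouping of libraries here was made after the values were seen, and the ratio to this sum was not a planned comparison. In the former 4 libraries miR-24-3p was 0.179 to 0.230 times miR-27a, 0.0983 to 0.284 times miR-23a and 0.718 to 8.92 times miR-27b-3p.

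**Figure D3:**
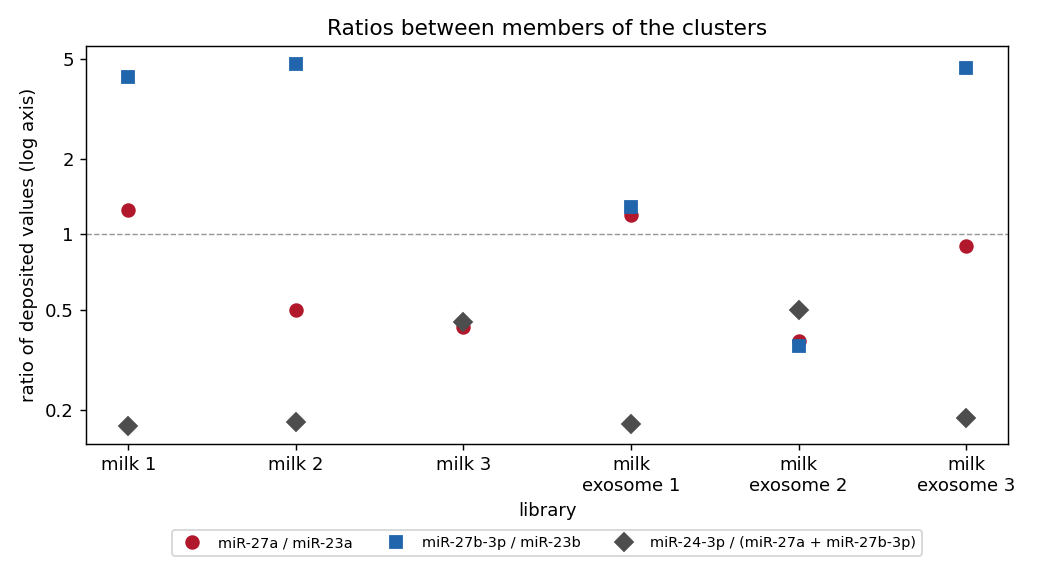
Ratios of deposited values (log axis) between cluster members by library; the dashed line marks equal values. The ratio of miR-24-3p to the miR-27 sum lies between 0.173 and 0.185 in 4 libraries and at 0.446 and 0.50 in milk 3 and milk exosome 2, and the ratio of miR-27b-3p to miR-23b falls from above 4 in the deep pair to 0.360 in milk exosome 2.

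Between milk exosome and milk no member passed. By limma on log2(value + 1), adjusted by Benjamini-Hochberg over all 141 tested miRNAs, 0 of the 5 tested members and 0 of all tested miRNAs (0%) had an adjusted p under 0.05, and 0 had an unadjusted p under 0.05. Of the 5 members 4 had positive and 1 had negative log2 fold changes with a median of 0.45, beside 84 positive, 57 negative and a median of 0.34 over all tested miRNAs. After rescaling to a common total of the listed sequences 1 member was positive and 4 were negative, beside 49 positive and 92 negative of all tested miRNAs, whose median moved to -0.33. In the shallow libraries alone the counts were 4 and 1 for the members and 81 and 60 for all tested miRNAs.

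Among the a paralogs the log2 fold change of miR-23a was 0.27 (SE 1.57, adjusted p = 0.997 in limma) and that of miR-27a was 0.47 (SE 1.76). After the rescaling they were -0.42 and -0.22, on either side of the shifted median. Without milk exosome 1 they were -0.99 and -1.14. In the shallow libraries alone they were 0.16 and 0.70. With each library recentred on its median of log2 values they were 0.16 and 0.36. The direction of both a paralogs thus turned with single libraries and with rescaling to a common total, but not with recentring.

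The largest log2 fold change of the tested members was that of miR-23b, 3.29 (SE 2.08). Because milk 3 listed it at 0, the value moved with the pseudocount, to 4.40 with 0.1 and 2.18 with 10. Without milk 3 it was 1.29, and in the shallow libraries alone it was 5.17. Between the deep libraries its log2 difference was -0.46, exosome 3 minus milk 1, the opposite direction. The log2 fold change of miR-27b-3p was -0.49 (SE 1.02) and lay between -0.56 and -0.40 with 1 library left out in turn; the deep libraries differed by -0.35, and the shallow libraries alone gave -0.56. After rescaling to a common total it was -1.19, with a residual SD of 2.2. On the deposited scale its own residual SD was 0.14, against a median of 2.5 for all tested miRNAs, and limma draws its error toward the spread of all miRNAs. For miR-24-3p it was 0.45 (SE 1.34), -0.25 after rescaling, -0.69 without milk exosome 1 and 0.65 in the shallow libraries alone.

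**Figure D4:**
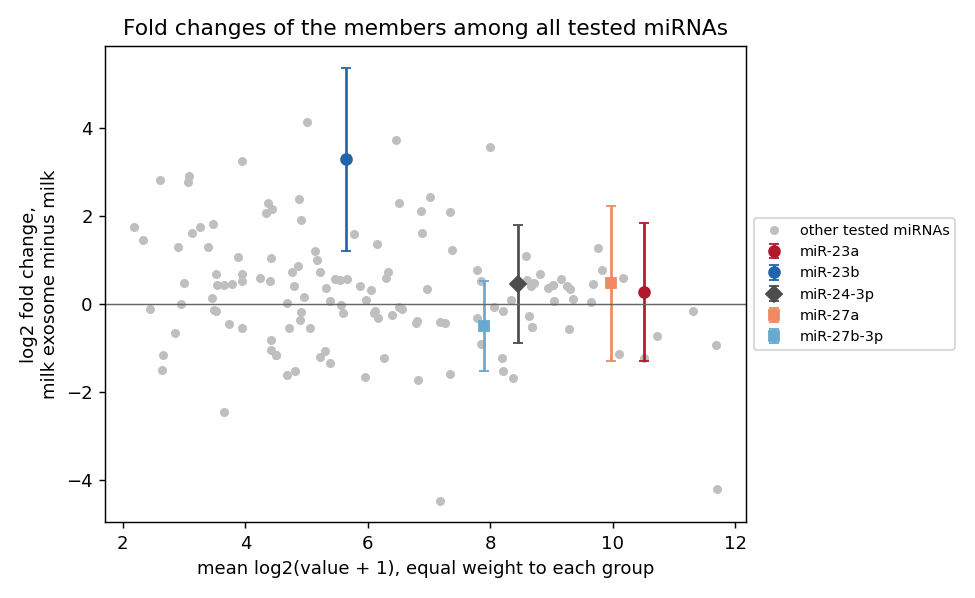
Log2 fold change, milk exosome minus milk, against the mean log2(value + 1) for 141 tested miRNAs, with the 5 tested members in colour and bars of 1 SE from limma. miR-23b stands at 3.29 and the other members between -0.49 and 0.47, and the error bars of all but miR-23b cross 0; no member passed at an adjusted p of 0.05.

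Likeness of pattern was measured as the SD, over the 6 libraries, of the log2 ratio between a member and another miRNA, on log2(value + 1), where a small SD means a steady ratio. All miRNAs of 1 library share its depth and scaling, so these values describe the 6 libraries only. For miR-27a the steadiest partner among 140 tested miRNAs was miR-23a (SD 0.77), against a median SD of 2.57. For miR-23a the partner miR-24-3p ranked 2 (SD 0.75) and miR-27a ranked 4. With a pseudocount of 10, added after the data were seen, miR-23a ranked 3 for miR-27a, and miR-24-3p and miR-27a ranked 7 and 6 for miR-23a. The b paralogs were less close: for miR-23b, miR-27b-3p ranked 54 with an SD of 3.22, against a median of 3.40 for all partners of miR-23b, and ranked 53 with an SD of 2.08 against a median of 2.32 with a pseudocount of 10. For miR-27b-3p, miR-23b ranked 115, and 103 with a pseudocount of 10, and both SDs lay above the median of all its partners. The paralogs of a pair had an SD of 3.11 for miR-23a with miR-23b and 2.19 for miR-27a with miR-27b-3p.

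Of the other miRNAs, miR-532-5p (SD 0.58), miR-222 (0.76) and miR-425-3p (0.87) had the steadiest ratio to miR-23a. miR-222 (0.82), miR-425-3p (0.95) and miR-1296-5p (1.00) came nearest to miR-27a. With a pseudocount of 10 miR-210 was the nearest to both a paralogs, with an SD of 0.59 for miR-23a and 0.36 for miR-27a, and miR-222 stayed among the nearest 3 of both. miR-222 measured 81.9, 1319 and 41.5 in the milk libraries and 1027, 19.7 and 90.5 in the exosome libraries, high in milk 2 and milk exosome 1 as the a paralogs were. miR-139-5p (0.87), miR-151-5p (1.02) and miR-128 (1.04) came nearest to miR-23b. miR-151-5p was at 1533 in milk exosome 2 and at 6.92 to 258 elsewhere, so it shared the peak of miR-23b. Nearest to miR-27b-3p were miR-29b (0.40), miR-29a (0.67) and miR-30d (0.72). For miR-29b the values ran from 39.3 in milk exosome 2 to 103 in milk exosome 3.

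Markers of other cells also differed between the libraries, not all in the pattern of the a cluster. The endothelial list of 7 listed sequences, led by miR-10b and holding miR-221-3p and miR-222, made up 9.48% and 7.73% of the signal in milk 2 and milk exosome 1. Its shares were 9.13% and 7.88% in milk 3 and milk exosome 2, where the a cluster was low, and were 0.0498% and 0.0489% in the deep pair. miR-126-3p, the defining endothelial member, was at 201 in milk 2 and 54.0 in milk exosome 1, and at 256 in milk exosome 2. miR-221-3p reached 1850 in milk 2 and 4296 in milk exosome 1, while milk exosome 2 listed it at 0. miR-100 made up 2006 of the list's 2400 in milk 3, and miR-10b made up 4993 of 6054 in milk exosome 2. Different members thus carried the list in different libraries, so its share does not measure endothelial cells.

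The muscle list held 55.6% of milk exosome 2, the library with the highest miR-23b, with all 6 of its sequences above 0. Its share was 10.7% in milk 2, 7.81% in milk exosome 1, 0.658% in milk 3 and at most 0.00441% in the deep pair. The epithelial and mammary list, led by miR-148a-3p, stood at 2.53% in milk 2, 3.23% in milk exosome 1 and 9.42% in milk 3. Its share was 0.179% in milk exosome 2, where 5 of its 7 sequences were listed at 0, and 0.223% and 0.195% in the deep pair. miR-148a-3p made up most of this list, with a value of 2130 of 2476 in milk 3. miR-200a, miR-200b, miR-200c and miR-141 matched no listed sequence. miR-205 was at 172 in milk 2, 270 in milk exosome 1 and 55.3 in milk 3, so the list share does not measure epithelial cells. The erythrocyte list of 4 held 90.4% and 89.9% of the deep pair and 2.92% to 12.4% of the other libraries. In milk exosome 2 it was mostly miR-486 (2084 of 2241), and in milk exosome 1 mostly miR-16 (3130 of 3517). miR-451 was at 19.7 and 36.0 there and miR-144 at 0 in both, so the list share does not measure red blood cells there. Milk 2 and milk 3 had miR-451 at 2782 and 1826. The leukocyte list, led by miR-142-5p, held 0.230% to 3.36% of each library, and the stromal list, led by miR-199a-3p, 0.00197% to 3.21%. The part of these markers in the levels of the clusters was not tested. In such bulk libraries fewer cells or vesicles of a source and less of a miRNA in each of them cannot be told apart.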

How the data were processed

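Small RNA of 3 milk and 3 milk exosome samples was sequenced as single-end reads of 36 bp on an Illumina HiSeq instrument after TruSeq Small RNA preparation, per the labels' protocols. The deposited values are a signal, a normalized miRNA abundance made by the authors; no label or file header names the aligner, annotation, normalization or filters. The labelled table had 279 lines, of which 34 were exact repeats, leaving 245 entries with 238 sequences. A second table's 6 value columns match no sample label and were not used. In each library 70.9% to 88.0% of the values above 0 were whole multiples of the most frequent one within 0.01, so whole reads were not recovered and read numbers are estimates; in milk 2 0.5 of that step may be the true value of 1 read.

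Entries at 10 or more in at least 3 libraries, 141 in all and 5 of the 6 members, were tested by limma 3.58.1 under R 4.3.3, its intensity trend switched on, at an adjusted p of 0.05. The values entered as log2(value + 1), a scale on which the added 1 shrinks changes of low miRNAs. The fit was also run on simulated data, with an outcome that is not given here. Paralog shares and ratios were compared by exact permutation tests in Python 3.11.15 (scipy 1.17.1), and plots were made in matplotlib 3.10.9. Cell type lists were matched by mature name. The members, lists, tests and named miRNAs (the 3 with the steadiest ratio to each paralog, and the leaders of each library and list) were chosen with earlier results of these data known. Alternatives were a replicate block, other scalings, pseudocounts and filters, depth class as a term, the shallow libraries alone and each library left out.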

Additional observations from a re-analysis of the deposited data

How the results depend on the processing

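The number of miRNAs past an adjusted p of 0.05 was 0 under all 18 alternatives of the limma fit, with at most 5 at an unadjusted p under 0.05 (without milk exosome 3). With 1 library left out in turn, the log2 fold change ran from -0.99 to 1.40 for miR-23a, from -1.14 to 1.84 for miR-27a, from 1.29 to 4.31 for miR-23b, from -0.56 to -0.40 for miR-27b-3p and from -0.69 to 1.05 for miR-24-3p. Rescaling to a common total turned miR-23a to -0.42, miR-27a to -0.22 and miR-24-3p to -0.25, and moved miR-27b-3p from -0.49 to -1.19. Recentring on the library medians gave 0.16, 0.36, 0.34 and -0.60 in the same order, with no change of direction. A pseudocount of 0.1 or 10 moved miR-23b to 4.40 or 2.18. miR-23b and miR-27b-3p kept their direction under all alternatives that gave a value, and with values of 100 or more required miR-23b was not tested. With 1 library left out, the group difference ran from -24.6 to 0.000874 points for the miR-23a share, from -7.37 to 18.2 points for the miR-27a share and from -0.15 to 0.69 for the log2 ratio of miR-27a to miR-23a. The mean share of miR-23a ran from 86.6% to 96.8% and that of miR-27a from 68.7% to 79.1%. These shares stayed above 50% under all alternatives run, and no alternative brought an exact p under 0.05. Alternatives with 5 or fewer libraries cannot reach it, nor can a test of the miR-27a share against 50% that includes milk exosome 2. Likeness depended on the pseudocount, as for miR-24-1-5p: miR-27a ranked 1 of 141 for it with a pseudocount of 1 and 72 with one of 10.

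Deviations from the group means correlated at -0.25, 0.39 and -0.48 for numbers 1, 2 and 3, and at 0.85 for milk 1 with milk exosome 3. With 3 libraries in a group and 1 deep library in each, these values cannot tell whether libraries of 1 number came from 1 animal. With the replicate block 0 miRNAs passed (smallest adjusted p = 0.997 in limma), and the share differences kept their values of -15.9 and 5.15 points with exact sign-flip permutation p of 0.75 and 1; the ratio difference stayed at 0.20. Low depth limits the 4 shallow libraries most: in milk 3 and milk exosome 2 each member rested on at most 40 reads.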
